A study of Equus caballus with 2 samples.

Results

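The genes described here encode secreted BMP and activin signals, the proteins that hold those signals back, and the ID proteins, a family of nuclear regulators controlled by BMPs. They were taken by symbol from the deposited gene list, which gave 10 genes of 21426: *BMP4*, *INHBA*, *GREM1*, *FST*, *FSTL3*, *BAMBI*, *ID1*, *ID2*, *ID3* and *ID4*. The study asked how TGF-β1, a growth factor that drives fibrosis, and the milk fat globule protein MFGE8 alter fibroblasts of the equine endometrium, and single cell RNA sequencing of the control and TGF-β1 groups was used here. The MFGE8 group was not analysed here.

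The fibroblasts came from the endometrium of 4 mares, taken after slaughter in the middle of the luteal phase, with healthy or only mildly fibrotic tissue. They grew on collagen-coated hydrogels in medium with serum and were freed with trypsin for sequencing. For the last 24 h, albumin at 0.1% took the place of serum, either with nothing added (control) or with human recombinant TGF-β1 at 10 ng/ml. Cells of the 4 mares were pooled into 1 droplet library per condition, so library and condition cannot be told apart and differences have no replicate check. Counts are UMIs, which tag single RNA molecules at their 3′ end. A cell was kept if it had 20000 or more UMIs, 3500 or more genes and less than 4% of its UMIs on mitochondrial genes. The control library kept 3865 of 4384 barcodes with 210497250 UMIs and a median of 50313 per cell. The TGF-β1 library kept 4513 of 5124 barcodes with 219731144 UMIs and a median of 43142. The median mitochondrial share was 1.47% in control and 1.21% in TGF-β1 cells. The libraries shared 6 barcode sequences, 2 of them among kept cells. Levels are given as CPM, the counts of a gene per 1000000 UMIs of its library, ratios as log2 of TGF-β1 over control, and brackets hold exact 95% intervals, which cover counting error only.

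BMPs and activins are dimeric ligands of the TGF-β family. BMPs act mainly through SMAD1, SMAD5 and SMAD9, and activins, like TGF-β itself, through SMAD2 and SMAD3. Their reach is set outside the cell by secreted binding proteins and at the membrane by receptors without a working kinase. The *ID* genes are among the most direct transcriptional targets of BMP signalling: ID proteins pair with basic helix-loop-helix factors but cannot bind DNA, and so keep their partners from it. In the uterus, BMPs and activin A are made by stromal cells and take part in preparing the endometrium for pregnancy.

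In the TGF-β1 library the activin subunit gene *INHBA* and the activin antagonists *FSTL3* and *FST* were higher than in the control library, and the BMP antagonist *GREM1* was lower. *BMP4*, *BAMBI* and the 4 *ID* genes stayed within 2-fold. All 10 genes reached a mean of 1 CPM, and of the 10, 3 were higher and 1 lower by more than 2-fold. Of all 12116 genes that reached it, 3.45% were higher and 3.46% lower to that degree. The 10 genes were chosen with earlier results of these data known, so no excess over all genes was read. The median log2 ratio was 0.04 over the 10 genes and -0.01 over the 12116. The count of 3 includes *FST*, the scarcest of the 10, whose interval reached below 2-fold.

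**Figure D1:**
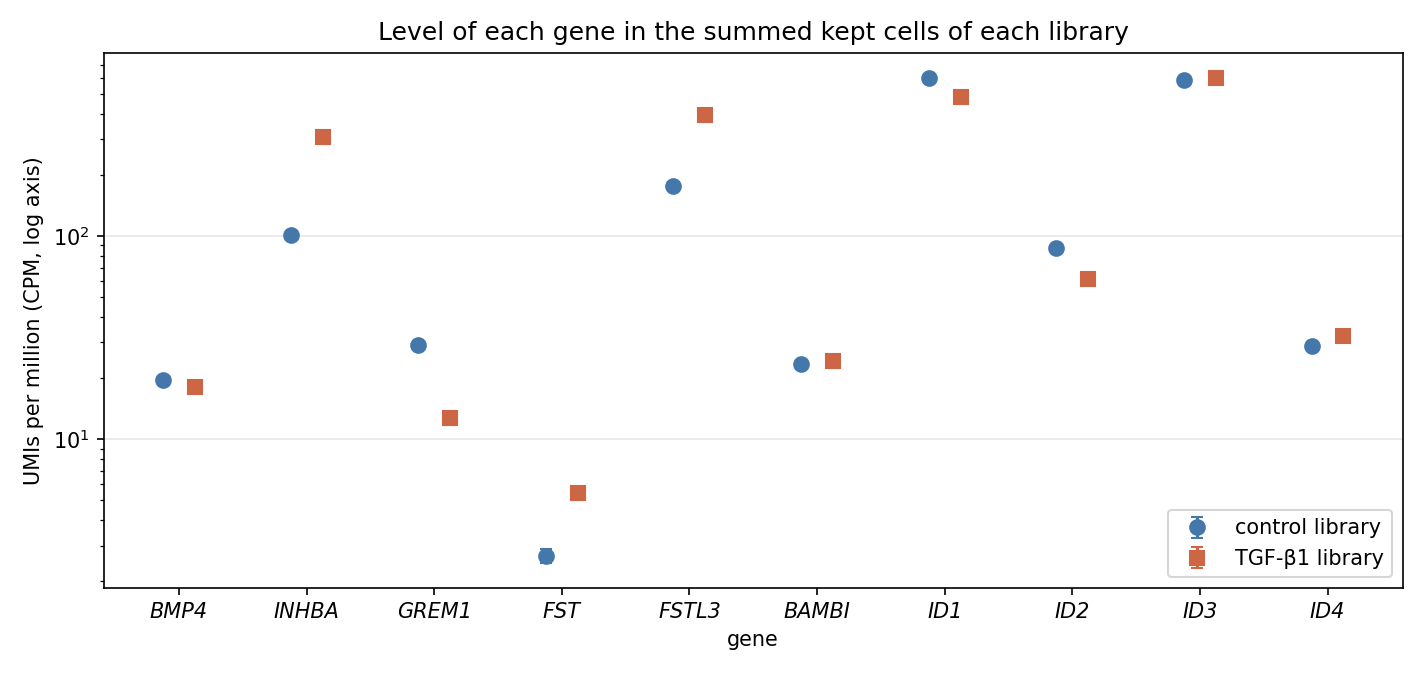
Level of each of the 10 genes in the control library (circles) and the TGF-β1 library (squares), as CPM on a log axis; bars are exact 95% intervals of counting error, mostly smaller than the symbols. *INHBA*, *FST* and *FSTL3* sit higher in the TGF-β1 library, at 307, 5.42 and 397 CPM, *GREM1* sits lower, at 12.8 CPM, and the other 6 lie close together.

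Among the ligands, *INHBA* (ENSECAG00000022448) encodes the subunit whose dimer is activin A. It had 21426 UMIs, or 102 CPM, in the control library and 67432 UMIs, or 307 CPM, in the TGF-β1 library. The level was 3.01-fold higher with TGF-β1, a log2 ratio of 1.59 (1.57 to 1.61), which placed *INHBA* at rank 170 from the top of the 12116 genes. *BMP4* (ENSECAG00000017676), which encodes a BMP that signals in many mesenchymal tissues, had 19.5 CPM without TGF-β1 and 18.0 CPM with it. Its log2 ratio of -0.11 (-0.18 to -0.05) lay near that of the median gene.

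Of the antagonists among the 10 genes, 1 was lower and 2 were higher. *GREM1* (ENSECAG00000044796) encodes gremlin, which traps BMPs, among them BMP4. It fell from 6100 UMIs, or 29.0 CPM, in the control library to 2806 UMIs, or 12.8 CPM, in the TGF-β1 library, which is 2.27-fold lower (log2 ratio -1.18, -1.25 to -1.12). *FSTL3* (ENSECAG00000003580) and *FST* (ENSECAG00000017783) encode follistatin-like 3 and follistatin, which bind activins and block their receptor sites. *FSTL3* had 176 CPM without TGF-β1 and 397 CPM with it, a log2 ratio of 1.17 (1.15 to 1.19). *FST* had only 562 UMIs without TGF-β1 and 1190 with it, or 2.67 and 5.42 CPM. The log2 ratio of *FST* was 1.02 (0.87 to 1.17), and it was 0.9985 without the cells above the 98th percentile of UMIs and 0.92 in cells of 20000 to 50000 UMIs. Both follistatin genes were thus higher with TGF-β1 while gremlin was lower.

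Set against their ligands, all 3 antagonists were scarcer with TGF-β1. For each *BMP4* UMI the control library held 1.48 *GREM1* UMIs (1.43 to 1.55) and the TGF-β1 library 0.708 (0.675 to 0.744). For each *INHBA* UMI there were 1.73 *FSTL3* UMIs (1.70 to 1.76) without TGF-β1 and 1.29 (1.28 to 1.31) with it. *FST* UMIs per *INHBA* UMI numbered 0.0262 (0.0241 to 0.0285) and 0.0176 (0.0167 to 0.0187). Over all kept cells the activin antagonists were higher with TGF-β1, but by less than the activin subunit. For *FST* this turned in cells without a UMI of *CFD*, which encodes complement factor D, a setting chosen after seeing the data, with 0.0141 (0.0123 to 0.0161) *FST* UMIs per *INHBA* UMI in control and 0.0161 (0.0151 to 0.0172) with TGF-β1, intervals that overlap. These are ratios of transcript tags and say nothing of protein.

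*BAMBI* (ENSECAG00000003193) encodes a membrane protein that resembles a type I receptor but lacks the kinase, and so damps TGF-β, BMP and activin signals. It had 23.4 CPM without TGF-β1 and 24.2 CPM with it. The log2 ratio of 0.05 (-0.01 to 0.11) had an interval that held 0 over all kept cells. Without *KRT8* cells, a setting added after the data were seen, it was 0.07 (0.01 to 0.13), and without *CFD* cells -0.03 (-0.10 to 0.03). Whether *BAMBI* differed thus depended on the cells taken, and each value was far below 2-fold.

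The *ID* genes did not move as a block. *ID1* (ENSECAG00000031172) had 602 CPM without TGF-β1 and 487 CPM with it, a log2 ratio of -0.31 (-0.32 to -0.30). *ID2* (ENSECAG00000008738) had 87.8 and 61.5 CPM, a log2 ratio of -0.51 (-0.55 to -0.48). These 2 genes were lower with TGF-β1, each by under 2-fold. *ID3* (ENSECAG00000023322) had 590.2 and 599 CPM, a log2 ratio of 0.02 (0.01 to 0.03) that changed sign, to -0.03, in cells of 20000 to 50000 UMIs. *ID4* (ENSECAG00000013428) had 28.9 and 32.3 CPM, a log2 ratio of 0.16 (0.11 to 0.21). *ID3* and *ID4* thus lay close to their control levels.

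The genes also differed in how many cells held them. So that shares refer to the same depth, UMIs of every cell were drawn at random down to 20000. The share of cells with at least 1 *INHBA* UMI was 57.2% (55.7 to 58.8) without TGF-β1 and 91.0% (90.2 to 91.9) with it, and 73.0% and 96.1% without thinning. Positive cells held a mean of 3.14 *INHBA* UMIs in control and 6.42 with TGF-β1. On the log2 scale, 0.67 of the thinned *INHBA* difference lay in the share of cells and 1.03 in the UMIs per positive cell. *INHBA* was therefore detected in more cells and with more UMIs in them. At a fixed depth, a higher level in every cell would raise both, so these values cannot show whether more cells expressed it. The same holds for the genes that follow.

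*FSTL3* was already in most cells. It was found in 92.4% (91.5 to 93.2) of the control cells and 99.6% (99.4 to 99.8) of those given TGF-β1, or 98.3% and almost all, 99.96%, without thinning. The mean in positive cells was 3.85 *FSTL3* UMIs in control and 8.25 with TGF-β1. With a share this high in control, little room was left for it to differ. The share with *FST* was 4.40% (3.77 to 5.09) in control and 7.69% (6.93 to 8.51) with TGF-β1, or 9.47% and 16.0% without thinning. *FST* was thus detected in few cells of both libraries.

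*GREM1* was found in 25.5% (24.1 to 26.9) of the control cells and 15.9% (14.9 to 17.0) of those given TGF-β1, or 40.2% and 26.9% without thinning. Its mean in positive cells was 2.08 UMIs in control and 1.53 with TGF-β1, so *GREM1* was detected in fewer cells and with fewer UMIs in them. In the control library 2.15% of cells held 5 or more *GREM1* UMIs, against 0.244% with TGF-β1. *BMP4* was found in 28.0% (26.6 to 29.4) and 25.2% (23.9 to 26.5) of thinned cells, or 50.4% and 44.4% without thinning. *BAMBI* was found in 28.9% and 32.4% of thinned cells, yet the share with at least 2 *BAMBI* UMIs was 9.94% and 9.71%, so no order was read for it.

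*ID3* was the most widespread *ID* gene, in 97.2% of the cells without and 99.0% of those with TGF-β1 after thinning. *ID1* was in 86.3% (85.2 to 87.4) and 87.3% (86.3 to 88.3), an order opposite to that of its CPM, and none was read from it. What differed for *ID1* was the upper end: 22.6% of control cells held 20 or more *ID1* UMIs, against 15.3% of TGF-β1 cells. *ID2* was in 66.4% (64.8 to 67.9) of the cells without and 59.1% (57.6 to 60.5) of those with TGF-β1, and its mean in positive cells was 2.76 and 2.09 UMIs. *ID4* was in 34.9% (33.3 to 36.4) and 39.5% (38.1 to 41.0). Without thinning, the shares in control and TGF-β1 cells were 91.8% and 93.1% for *ID1*, 84.7% and 78.9% for *ID2*, 99.0% and 99.6% for *ID3*, and 56.2% and 61.4% for *ID4*. Lower *ID2* thus went with fewer positive cells and fewer UMIs in them, and lower *ID1* with fewer cells of very high count.

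**Figure D2:**
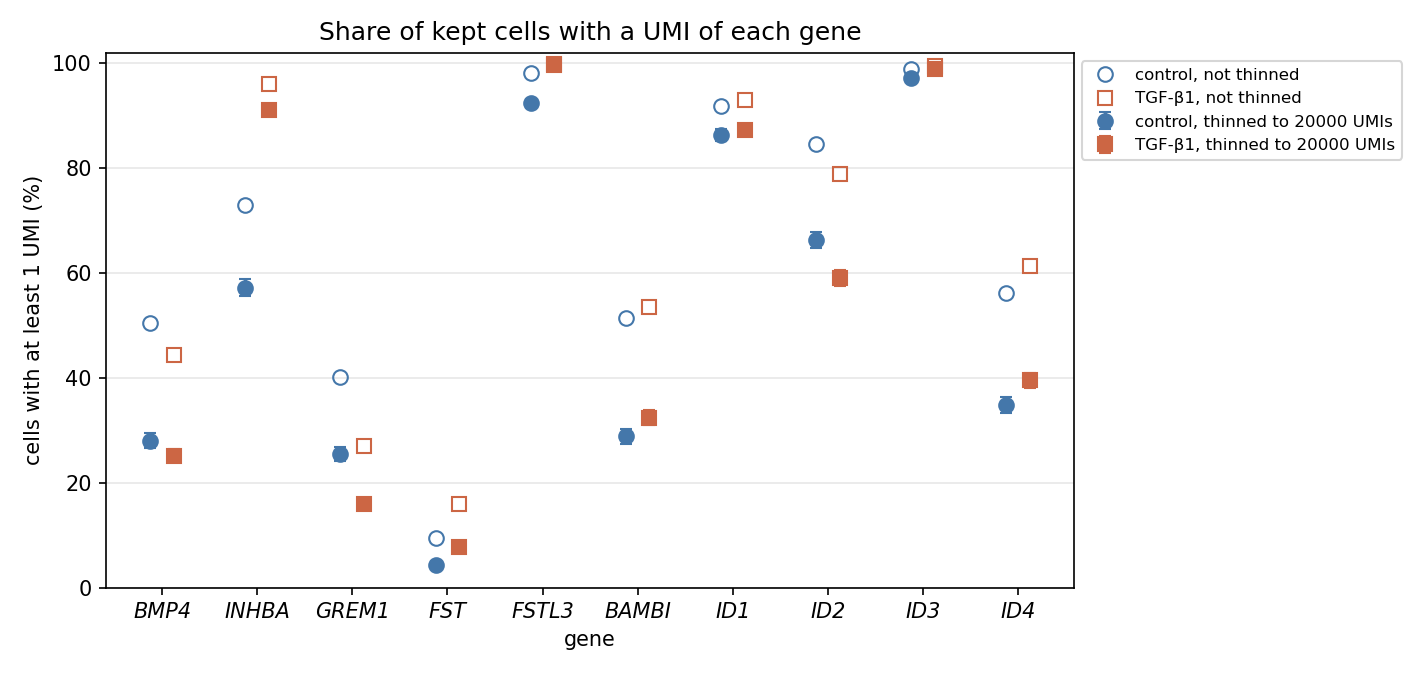
Share of kept cells with at least 1 UMI of each of the 10 genes in the control library (circles) and the TGF-β1 library (squares), filled after thinning each cell to 20000 UMIs with exact 95% intervals, open without thinning. The share for *INHBA* is 57.2% in control and 91.0% in TGF-β1 cells, that for *GREM1* 25.5% and 15.9%, and *ID1*, *ID3* and *FSTL3* are in most cells of both libraries.

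No cell type that should lack these genes was present, so RNA free in the suspension was not measured. Doublets were not removed. All kept cells held *VIM*, *COL1A1* and *COL1A2*. *EPCAM* and *CDH1*, which mark epithelium, were each in 1 thinned cell of either library, *PECAM1*, of endothelium, was in 2 control and 5 TGF-β1 cells, while before thinning *CD3E*, of T cells, had a UMI in 2 and 1, and *PTPRC*, of leukocytes, in 1 control cell. The 8 fibroblast markers, led by *COL1A1*, summed to 17259 CPM in control and 16212 CPM with TGF-β1. Of the 8, 5 were lower and the median log2 ratio was -0.47, with *PDGFRA* at 50.5 and 16.7 CPM, *THY1* at 216 and 87.5 CPM and *VIM* at 4399 and 2240 CPM. The 6 epithelial markers found of 8 summed to 134 and 12.3 CPM. Of this, *KRT8* made up 114 CPM in control and 4.48 CPM with TGF-β1, and *KRT7* 19.3 and 7.04 CPM. A *KRT8* UMI was in 25.6% of the cells without and 3.32% of those with TGF-β1, while *KRT7* was in 23.6% and 11.7%. The 6 endothelial markers summed to 13.2 and 24.0 CPM, of which *ERG* made up 11.9 and 22.6 CPM, with the other 5 below 1 CPM each. The 6 immune markers found of 7, led by *CD68*, summed to 52.6 and 55.0 CPM. The 6 smooth muscle and pericyte markers summed to 4356 and 5403 CPM, of which *ACTA2* made up 3608 and 4744.5 CPM, but 3 were higher and 3 lower, with *MCAM* at 5.78 and 1.75 CPM and a median log2 ratio of -0.07. *PDGFRA*, *THY1*, *VIM* and *MCAM* are named after their values were seen. The 9 cycling markers found of 10, led by *TOP2A*, summed to 53.5 and 30.9 CPM. Cells of both libraries thus had the collagens of fibroblasts, and keratins with almost no *EPCAM* or *CDH1*. In cells without a *KRT8* UMI the log2 ratios were 1.63 for *INHBA*, 1.16 for *FSTL3*, -1.35 for *GREM1* and 0.89 for *FST*, so that *FST* was under 2-fold and the other 3 were past it. This comparison was added after the data were seen. What part the markers have in the *FST* difference was not tested.

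Within each library, *INHBA* and *GREM1* varied with the UMI count of the cell. In control cells *INHBA* had 43.2 CPM in cells of 20000 to 35000 UMIs, 76.0 CPM in those of 35000 to 55000 and 131 CPM in those above 55000. In TGF-β1 cells the same ranges had 233, 297 and 346 CPM of *INHBA*. The control values were more unlike across depth, and the log2 ratio was 2.43 (2.31 to 2.56) in the shallow cells, 1.96 (1.93 to 2.00) in the middle and 1.40 (1.37 to 1.43) in the deep cells. *GREM1* had 16.3, 25.4 and 33.6 CPM in control cells and 9.67, 11.8 and 15.1 CPM in TGF-β1 cells. The *GREM1* log2 ratio was -0.75 (-1.01 to -0.49) in the shallow cells, within 2-fold, and -1.10 and -1.16 in the others. *FSTL3* stayed past 2-fold in all 3 ranges, at 1.41, 1.19 and 1.05. *FST* was under 2-fold in the middle range, which held 52.0% of control and 53.5% of TGF-β1 cells, with log2 ratios of 1.45 (0.92 to 2.01), 0.78 (0.56 to 1.00) and 1.10 (0.88 to 1.32). The sign differed among the ranges for *BMP4*, from -0.49 in shallow to 0.14 in deep cells, and for *ID3* (0.07, -0.06 and 0.05) and *ID4* (-0.05, with an interval that held 0, 0.27 and 0.08). Cells above 55000 UMIs were 37.4% of the control and 24.2% of the TGF-β1 library. RNA per cell and the making of the library cannot be told apart from the condition, and the part of depth in these ratios was not tested.

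The *INHBA* level also followed other genes among cells of the control library. In control cells with a UMI of *CFD*, *INHBA* had 66.3 CPM, against 128 CPM in those without (log2 ratio -0.95). In TGF-β1 cells these levels were 311 and 306 CPM, so *INHBA* was nearly level across *CFD*. *FST* went the other way: it had 3.83 CPM in *CFD*-positive and 1.81 CPM in *CFD*-negative control cells, and 7.87 and 4.93 CPM in TGF-β1 cells. *CFD* itself was in 44.3% of the cells without and 16.0% of those with TGF-β1. In cells without *CFD*, a comparison also added after the data were seen, TGF-β1 over control gave log2 ratios of 1.26 for *INHBA*, 1.45 for *FST*, 1.11 for *FSTL3* and -1.31 for *GREM1*. All 4 were past 2-fold there, though *INHBA* by less than over all cells. *AREG*, the epidermal growth factor receptor ligand amphiregulin, marked cells rich in *INHBA*, with 181 CPM against 97.7 CPM in control cells and 375 CPM against 284 CPM in TGF-β1 cells. *GREM1* was lower in cells with *KRT8*, in the control library, at 18.6 CPM against 32.8 CPM, and in the TGF-β1 library, at 9.06 CPM against 12.9 CPM. In cells with *IGFBP3*, an insulin-like growth factor binding protein, *GREM1* was lower in the TGF-β1 library, at 10.3 CPM against 14.6 CPM, but not in the control library, at 32.4 CPM against 28.8 CPM. In the 4.55% of control cells with *VCAM1*, an adhesion gene found in only 1 TGF-β1 cell, *INHBA* had 57.1 CPM against 104 CPM. High *INHBA* thus went with *AREG* in both libraries, and low *INHBA* with *CFD* and *VCAM1* in the control library.

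Co-detection was compared with the product of the single shares for all 45 pairs of the 10 genes in each library, after thinning. The ratio of observed to expected cells lay between 0.812 and 1.32 in the control library and between 0.850 and 1.25 in the TGF-β1 library, with medians of 1.01 and 1.00. Where a gene is in most cells this ratio cannot go far above 1: the single shares kept it below 1.2 for 24 of the 45 pairs in control and 30 with TGF-β1, so a ratio near 1 says little for those. The pair with the highest ratio was *INHBA* with *GREM1* in the control library, found together in 19.2% of cells where 14.6% were expected, a ratio of 1.32 (1.23 to 1.41, with the expected number taken as fixed). With TGF-β1, *INHBA* was in so many cells that the ratio could not exceed 1.10, and its value of 1.04 is not comparable. Without thinning the control ratio was 1.22. The pairs above 1.2 in the TGF-β1 library both held the rare *FST*, with *ID4* at 1.25 (1.08 to 1.45) and with *BMP4* at 1.25 with a lower bound of 1.03.

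The link between *INHBA* and *GREM1* was graded. Control cells without an *INHBA* UMI held *GREM1* in 14.6% (13.0 to 16.4) of cases, those with 1 to 4 in 29.0% (26.9 to 31.2), those with 5 to 9 in 47.9% (42.5 to 53.2), and those with 10 or more in 61.9% (51.9 to 71.2). In TGF-β1 cells the same ranges gave 9.16% (6.53 to 12.4), 12.1%, 17.2% and 25.8% (22.9 to 28.8). *GREM1* was thus more frequent where *INHBA* was high in both libraries, and at equal *INHBA* counts less frequent with TGF-β1. The top range held only 105 control cells but 869 TGF-β1 cells, and its median depth before thinning was 65524 and 47070 UMIs, against 46882 and 37701.5 in cells without *INHBA*. *BMP4* had a shallower slope, from 25.8% to 39.0% in control and from 19.1% to 30.6% in TGF-β1 cells. *FST* went the other way in control cells, in 3.57% (2.84 to 4.43) of those with and 5.51% (4.46 to 6.72) of those without an *INHBA* UMI, and was in 7.76% (6.96 to 8.62) and 6.93% (4.65 to 9.86) of TGF-β1 cells. The *INHBA* ranges were chosen after the values were seen.

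**Figure D3:**
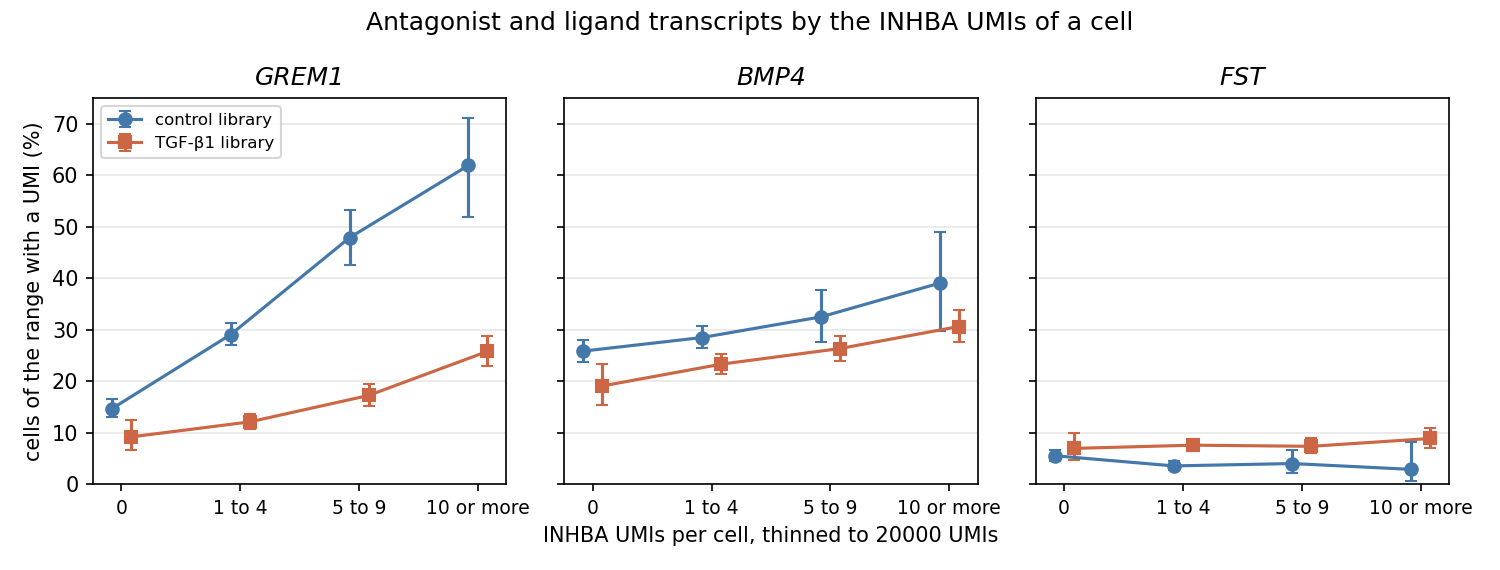
Share of cells with a UMI of *GREM1*, *BMP4* and *FST* (vertical axes, in %) in cells grouped by their *INHBA* UMIs after thinning to 20000 UMIs (horizontal axes), in the control library (circles) and the TGF-β1 library (squares), with exact 95% intervals. The share with *GREM1* goes from 14.6% to 61.9% in control cells and from 9.16% to 25.8% in TGF-β1 cells.

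The highest correlations among the 10 genes from cell to cell were those between *ID1*, *ID2* and *ID3*. Over thinned cells, with counts taken as log2 after adding 1, Pearson's r between *ID1* and *ID3* was 0.51 across 3865 control cells and 0.49 across 4513 TGF-β1 cells. Between *ID1* and *ID2* r was 0.42 and 0.29, and between *ID2* and *ID3* 0.31 and 0.23. *ID4* had lower r, of 0.16 and 0.13 to *ID1*, 0.09 and 0.08 to *ID2* and 0.10 and 0.07 to *ID3*. It averaged only 0.577 UMIs per thinned cell in control and 0.634 with TGF-β1. Even so, *ID1* was the gene most like *ID4* by the lower of its 2 correlations. Of the 39 other pairs, 1 reached 0.2 in the control library, *INHBA* with *GREM1* at 0.31, and 0 did so with TGF-β1. These are descriptions over cells that share a library, a depth and a pool of mares.

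Grouped by *ID1*, the same pattern was graded. In cells without *ID1* the mean was 0.761 *ID2* UMIs without TGF-β1 and 0.750 with it, and in cells with 20 or more *ID1* UMIs it was 3.21 and 2.22. *ID2* was thus alike in both libraries where no *ID1* UMI was found, and lower with TGF-β1 where *ID1* was high. *ID3* went from 6.26 to 19.0 UMIs in the control library and from 6.88 to 19.0 in the TGF-β1 library over the same ranges, nearly the same course in both. *ID4* went from 0.373 to 0.788 and from 0.480 to 0.889 UMIs. Cells without *ID1* were 13.7% (12.6 to 14.8) of the control and 12.7% (11.7 to 13.7) of the TGF-β1 library. Their median depth of 48861 and 42645 UMIs was near that of cells with 20 or more, 48512 and 40909. The *ID1* ranges were chosen after the values were seen.

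**Figure D4:**
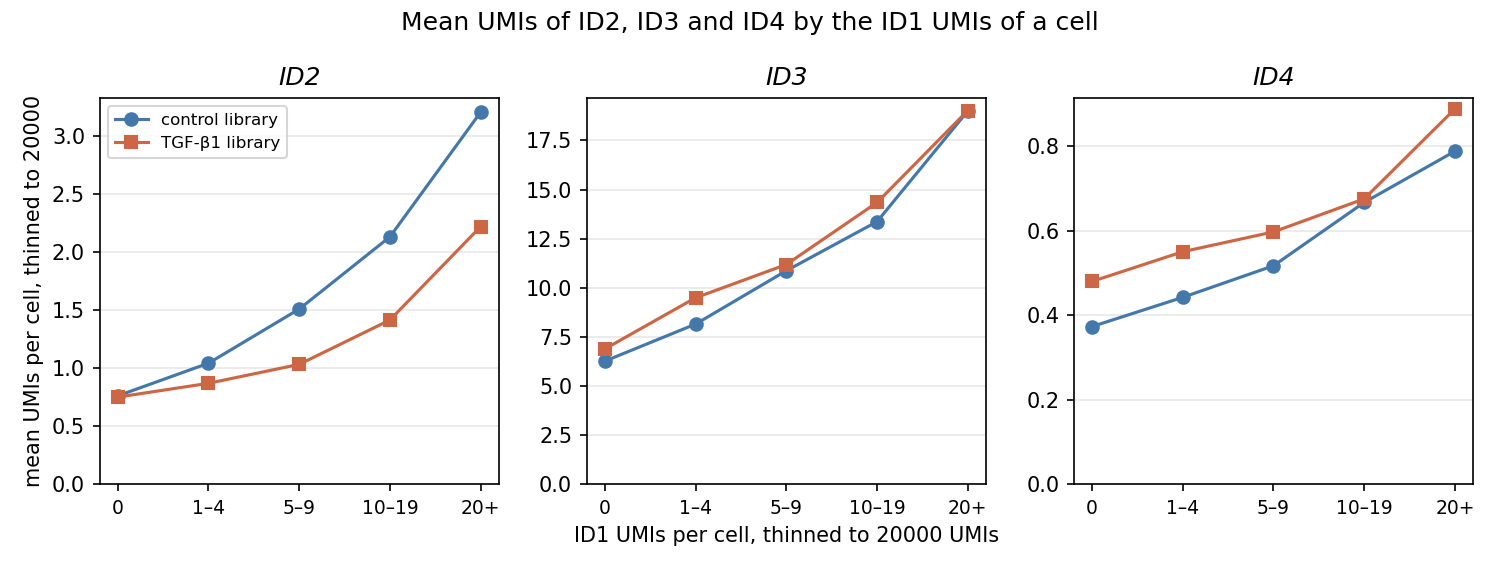
Mean UMIs per cell of *ID2*, *ID3* and *ID4* (vertical axes, each with its own scale from 0) in cells grouped by their *ID1* UMIs after thinning to 20000 UMIs (horizontal axes), in the control library (circles) and the TGF-β1 library (squares). *ID2* reaches 3.21 UMIs in control and 2.22 in TGF-β1 cells with 20 or more *ID1* UMIs, and *ID3* reaches 19.0 in both.

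Over 8135 other genes found in at least 10% of cells of both libraries, the genes most like each of the 10 were sought by the lower of its correlations in the 2 libraries. For *INHBA* they were *CALD1*, which encodes the actin-binding caldesmon (r of 0.53 in control and 0.41 in TGF-β1 cells), the tropomyosin *TPM1* (0.49 and 0.40) and the actin cross-linker *ACTN1* (0.41 and 0.35). *FSTL3* was nearest to the cytoskeletal actin *ACTG1* (0.32 and 0.30), the TWEAK receptor *TNFRSF12A* (0.29 and 0.29) and the smooth muscle gene *TAGLN* (0.27 and 0.30). *TAGLN* was also close to *INHBA* (0.45 and 0.34), in place 5, but the 3 nearest genes of *INHBA* and of *FSTL3* had none in common. Of these, *TPM1* was past 2-fold, with 2581 CPM in control and 6167 CPM with TGF-β1, and *TNFRSF12A* had 578 and 1129 CPM. Outside the *ID* family, *ID1* and *ID3* were nearest to *DUSP1*, a phosphatase gene induced early by serum and stress, with r of 0.38 and 0.23 to *ID1* and 0.28 and 0.21 to *ID3*. *DUSP1* had 201 CPM in control and 143 CPM with TGF-β1, lower like *ID1* and *ID2*. No gene reached 0.2 in both libraries with *BMP4*, *GREM1*, *BAMBI* or *ID4*, and *FST* was too rare for the comparison.

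The other genes of these pathways were taken from lists of ligands, receptors, antagonists, SMADs, BMP targets and helix-loop-helix partners. The lists were written with earlier results of these data known, so no excess over all genes was read from their counts. Of 51 further genes that averaged 1 CPM or more, 5 (9.80%) were higher and 7 (13.7%) lower by more than 2-fold, against 3.45% and 3.46% of the 12116 genes. Their median log2 ratio was 0.02, and the genes past 2-fold lay in both directions. Of the higher genes, *BMP7*, *DLX5* and *ACVR1C* were below 1 CPM in control and reached the minimum only through the TGF-β1 library. The lower genes were above 1 CPM in both libraries, so no balance of directions was read from these counts. Among 5 further BMP ligands, *BMP7* had 0.352 CPM in control and 2.30 CPM with TGF-β1 (log2 ratio 2.71), and *BMP6* had 6.55 and 2.99 CPM (-1.13). None of 3 further activin-type ligands passed 2-fold, and the furthest was *GDF1* (-0.52).

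Receptors went in both directions. Of 12 that averaged 1 CPM or more, 2 were higher and 3 lower by more than 2-fold, where 3.45% and 3.46% of all genes were. The BMP type I receptor *BMPR1B* had 15.0 CPM in control and 50.7 CPM with TGF-β1 (log2 ratio 1.75). *ACVR2A*, a type II receptor of activins and BMPs, had 53.9 and 20.3 CPM (-1.41). The co-receptors *TGFBR3*, or betaglycan, and *RGMA* had 7.85 and 1.88 CPM (-2.06) and 4.35 and 1.82 CPM (-1.26). The type I receptor *ACVR1C*, named after its values were seen, had 0.665 and 1.41 CPM (1.08). Below 1 CPM in control, *ACVR1C* entered the 12 only through the TGF-β1 library. The largest differences thus lay in a BMP type I receptor, which was higher, and in an activin type II receptor and betaglycan, which were lower.

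For comparison with the counts that follow, 3.45% of the 12116 genes were higher and 3.46% lower by more than 2-fold. Of 7 further antagonists, *CHRD*, which encodes the BMP antagonist chordin, was the only one past 2-fold. It had 7.097 CPM in control and 1.47 CPM with TGF-β1 (log2 ratio -2.27). The other 6 lay between -0.17 and 0.62, so most antagonists stayed near their control levels. Of 10 SMAD and SMURF genes, only the inhibitory *SMAD7* passed 2-fold, with 29.5 and 61.0 CPM (1.05). *SKIL* and *LTBP2*, which with *SMAD7* served as a check of the TGF-β response, had 54.9 and 90.6 CPM (0.72) and 116 and 125 CPM (0.10). Of 10 further BMP target genes, *DLX5* (2.94) and *SMAD7* were higher, and *ATOH8* (-2.02) and *HEY1* (-1.09) lower, by more than 2-fold. Of these, *DLX5* reached the minimum mean only through the TGF-β1 library. *DLX5* had 0.485 and 3.71 CPM, *ATOH8* 4.26 and 1.05 CPM, and *HEY1* 2.46 and 1.16 CPM, so BMP targets, like the *ID* genes, did not go in 1 direction. None of 7 helix-loop-helix partners of ID proteins passed 2-fold, and the furthest was *TCF4*, with 265 and 423 CPM (0.68).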

How the data were processed

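The deposited counts are UMI counts per gene and barcode, which the authors made with Cell Ranger (7.1.0 per the methods, 8.0.1 per the file headers) against EquCab3.0. The cell filters of the study were applied here. Its doublet calls and mare assignments, which rest on reads, were not used here, and doublets were not removed; as an alternative, the 2% of cells with the most UMIs were left out. UMIs of kept cells were summed per library and scaled to CPM. Ratios have exact conditional binomial intervals and shares Clopper-Pearson intervals, at 95%. With 1 library per condition no test was run. Each cell was thinned to 20000 UMIs by drawing without replacement from a fixed seed. A symbol on more than 1 row was not used. The software was Python 3.11.15, pandas 2.3.3, numpy 2.4.6, matplotlib 3.10.9 and scipy 1.17.1, and the ratio and its interval were tested on simulated data. The genes and lists were chosen with earlier results of these data known. The text names the 10 genes, list genes past 2-fold (at most 4, otherwise the furthest), the response check, the leading gene of each marker list and up to 3 genes most like each member with r of at least 0.2 in both libraries.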

Additional observations from a re-analysis of the deposited data

Results flagged for a closer look

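The barcodes left out by the cell filters, 519 in the control and 611 in the TGF-β1 library, were not part of the main comparisons. They entered only the alternative with all deposited barcodes. Among the barcodes left out, *INHBA* and *FSTL3* were higher with TGF-β1, with intervals above 0. *INHBA* had 144 CPM in the control and 333 CPM in the TGF-β1 barcodes left out, a log2 ratio of 1.21 (1.07 to 1.35). *FSTL3* had 122 and 269.6 CPM there, a log2 ratio of 1.14 (0.98 to 1.30). *GREM1* was lower there, with 48.9 and 17.5 CPM and a log2 ratio of -1.48 (-1.88 to -1.09).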

How the results depend on the processing

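Over 9 alternatives of cells, scaling and averaging, the log2 ratio ranged from 1.58 to 2.07 for *INHBA*, 1.17 to 1.27 for *FSTL3*, -1.20 to -1.13 for *GREM1* and 0.92 to 1.06 for *FST*. Removing cells with a UMI of *KRT8* or of *CFD*, which was chosen after seeing the data, widened these ranges to 1.26 for *INHBA*, 1.11 for *FSTL3*, -1.35 for *GREM1*, and 0.89 and 1.45 for *FST*. Over the 11 settings *INHBA*, *FSTL3* and *GREM1* stayed past 2-fold in all and *FST* in 8. *ID3* changed sign in cells of 20000 to 50000 UMIs (-0.03), and *BAMBI* without *CFD* cells (-0.03), both near 0. The count of genes past the limit was 3 higher and 1 lower, where 3.45% and 3.46% of the 12116 genes were. It was 2 and 1 without cells above the 98th percentile of UMIs, in cells of 20000 to 50000 UMIs and without *KRT8* cells. The share over all genes was not computed for those settings. With a minimum mean of 10 CPM it was also 2 and 1, where 2.30% of 7658 genes were higher and 2.13% lower. Without *CFD* cells *FST* per *INHBA* was higher with TGF-β1 (0.0141 and 0.0161), against lower over all cells. Of 270 alternative values of co-detection, 268 stayed within the interval, and 19 lay on the other side of a ratio of 1 from the main value. Leaving out cells above the 98th percentile of UMIs, or cycling cells, removed few cells, so those values could hardly leave the interval. All 60 alternative shares lay outside their intervals, which was to be foreseen, since each setting changed the depth or the minimum UMIs. The direction between libraries differed among settings for *BAMBI* and *ID1*. Depth limits *FST* most, with 562 control UMIs. The spread between mares and between cultures was not measured.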

Other observations

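A thinned cell held UMIs of a median of 5 of the 10 genes without TGF-β1 and 6 with it. All 4 *ID* genes were found together in 23.3% of the cells without and 22.9% of those with TGF-β1, and none in 0.595% and 0.177%. *FST* UMIs were found in 170 thinned control cells and 347 thinned TGF-β1 cells. The top 1% of cells held 35.8% of them without TGF-β1 and 32.0% with it, and the highest cell had 6 and 22. A gene this scarce, with means of 0.053 and 0.106 UMIs per cell, has a high top share in any case. For *INHBA* the top 10% of cells held 47.8% of its UMIs without TGF-β1 and 31.8% with it. Such a share depends on the mean, here 1.80 and 5.85 UMIs per cell, so no difference in evenness was read from it.

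Cells with 3 or more cycling markers made up 1.91% of control and 1.66% of TGF-β1 cells. *ID1* was higher in them than in other cells, at 759 against 598 CPM without TGF-β1 and 571 against 485 CPM with it. *INHBA* was lower in them, at 64.0 against 103 CPM and 239 against 309 CPM. Among cycling cells the log2 ratio came to 1.90 (1.72 to 2.08) for *INHBA*, 0.46 (0.38 to 0.53) for *ID3*, 0.83 (0.72 to 0.94) for *FSTL3*, under 2-fold, and -0.36 (-0.79 to 0.06) for *GREM1*, and the *GREM1* interval held 0 over only 74 control and 75 TGF-β1 cells.

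In the barcodes left out by the cell filters, *ID1* had 314 CPM in the control and 196 CPM in the TGF-β1 library, and *ID3* 349 and 316 CPM, all below the levels of the kept cells. *GREM1* had 48.9 and 17.5 CPM there, above its levels in kept cells of the same library.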
